A study of Mus musculus with 11 samples.

Results

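The genes described here encode the machinery that translates the mitochondrial genome in mouse embryos. They were chosen by name: every gene of the deposited table called Mrpl or Mrps followed by a number, plus the translation factors Tufm, Tsfm, Gfm1, Gfm2, Mtif2, Mtif3 and Mtrf1l. The rule found 85 genes of the 49585 in the table. Of these, 51 encode proteins of the large subunit of the mitochondrial ribosome, 26 encode proteins of its small subunit and 7 encode the factors. Mrps36, the remaining gene, carries a ribosomal name but its product is a component of the oxoglutarate dehydrogenase complex. Some names mislead about the subunit: Mrps30 and Mrps18a encode proteins that sit in the large subunit and were counted there.

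Mitochondria keep a small genome whose messenger RNAs encode core subunits of the respiratory chain, and these are translated inside the organelle on a ribosome of its own. The ribosomal RNAs come from the mitochondrial genome, whereas every ribosomal protein and every factor is encoded in the nucleus and imported. Some of the proteins descend from bacterial ribosomal proteins and others were added in the mitochondrial lineage. The egg supplies the embryo with a large store of mitochondria and of maternal messenger RNA, and the maternal RNA is degraded while the genome of the mouse embryo is activated at the 2-cell stage.

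RNA-seq libraries had been made from C57BL/6 embryos in 4 groups. There were 3 libraries of 2-cell embryos from round spermatid injection (ROSI), 3 of 2-cell embryos from intracytoplasmic sperm injection (ICSI), 2 of ROSI zygotes and 3 of ICSI zygotes. In ROSI the nucleus of an immature male germ cell, the round spermatid, is placed in an oocyte, and in ICSI a sperm is. ROSI embryos alone were activated in calcium-free CZB medium with 5 mM SrCl2 for 1 to 2 h, so the male cell and the chemical activation are compared together and cannot be told apart. Both kinds of embryo were grown in KSOM. The labels name neither the number of embryos per library nor separate cultures, so p-values measure the spread between these libraries, which may be technical.

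The values are TPM, a transcript level corrected for gene length and scaled to the same total in every library. Recovered depth, in M reads (megareads), was 20.5 to 23.03 for ROSI 2-cell libraries, 8.48 to 32.9 for ICSI 2-cell libraries, 30.4 and 85.9 for ROSI zygotes and 70.7 to 82.97 for ICSI zygotes. The 12 oocyte markers summed to 2952 to 4108 TPM in ROSI 2-cell embryos, 4085 to 4527 TPM in ICSI 2-cell embryos, 12240 to 13961 TPM in ROSI zygotes and 14320 to 17495 TPM in ICSI zygotes. The 15 spermatid markers summed to 47.9 to 64.5 TPM in ROSI 2-cell embryos and 13.6 to 22.7 TPM in ICSI 2-cell embryos, and to 97.4 and 188 TPM in ROSI zygotes and 28.0 to 35.0 TPM in ICSI zygotes. The 12 cumulus markers summed to at most 4.81 TPM in any library. Replicate 1 of the ROSI zygotes and replicate 1 of the ICSI zygotes stood apart, with 0.611% and 0.572% of TPM from small nuclear and nucleolar RNA against 1.64% to 2.58% in the other zygotes.

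The genes lie on 17 chromosomes, and their levels spanned a wide range. Mrpl18, a protein of the large subunit that contacts its ribosomal RNA, had the highest mean over the 4 groups, 201 TPM. It was followed by Mrpl32 with 187 TPM, Mrps33 with 100.01 TPM, Mrpl40 with 92.9 TPM, Mrpl12 with 76.6 TPM and Mrps25 with 68.9 TPM. At the low end, Mrpl15 averaged 3.35 TPM, Mrpl23 1.18 TPM, Mrpl33 0.963 TPM, Mrpl19 0.944 TPM and Mrps34 0.416 TPM, and Mrpl53 was listed at 0 in all 11 libraries. Annotated exons of Mrpl53 are shared over 88.0% of their length with Gm42688 on the same strand, and those of Mrps34 over 63.4% with Mapk8ip3 on the opposite strand and 37.0% with Nme3 on the same strand. Whether reads of these genes were assigned to their neighbours was not tested. Both missed the minimum for testing, 1 TPM reached in 2 libraries, and the other 83 genes were tested. Of the 83, 79 averaged at least 1 TPM in every group.

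Exons of 37 of the 85 genes overlap an exon of another gene, in 32 cases one on the opposite strand. The libraries kept strand, but the strand setting used for counting is not given in the sources used here. Without that setting, reads from a gene and from its opposite-strand partner cannot be told apart. On the opposite strand, the largest overlaps among genes named below are those of Mrps25 with Nr2c2 (69.8% of its exon length) and Mrpl43 with Twnk (33.4%). Next are Mrps18b with Gm16279 (30.5%), Mtif3 with Gtf3a (29.4%) and Mrps27 with 6430562O15Rik (24.2%). On the same strand, the largest are those of Mrps18c with Gm43511 (23.2%) and Mrps6 with Gm49711 (19.9%). For these a strand setting would not separate the reads. Counts among the 48 genes without any overlap are given beside the main ones.

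Promoters are shown for genes that mark the patterns below: Tufm and Mrpl34, higher in ROSI than ICSI 2-cell embryos; Mrpl43 and Mrpl20, higher at the 2-cell stage; and Mrpl32 and Mrpl9, lower at that stage. Each stretch runs from 100 bases before to 20 bases after the transcription start in RefSeq, build GRCm38.p6, 5′ to 3′ on the strand of the gene. Capitals mark matches on either strand to GCGCATGCG, the letters of the NRF1 motif, or to CCGGAAG, those of the ETS family.
Tufm (chr7:126487255-126487374, plus strand): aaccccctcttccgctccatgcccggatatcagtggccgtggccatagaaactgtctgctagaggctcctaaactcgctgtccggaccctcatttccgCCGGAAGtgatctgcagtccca
Mrpl34 (chr8:71464826-71464945, plus strand): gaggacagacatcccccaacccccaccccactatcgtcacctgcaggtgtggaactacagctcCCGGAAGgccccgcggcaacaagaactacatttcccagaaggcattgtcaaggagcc
Mrpl43 (chr19:45006423-45006542, minus strand): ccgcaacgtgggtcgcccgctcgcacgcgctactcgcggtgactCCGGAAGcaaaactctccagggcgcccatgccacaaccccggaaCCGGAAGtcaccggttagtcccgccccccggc
Mrpl20 (chr4:155802778-155802897, plus strand): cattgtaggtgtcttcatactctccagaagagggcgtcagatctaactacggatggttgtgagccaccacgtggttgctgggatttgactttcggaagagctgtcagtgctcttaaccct
Mrpl32 (chr13:14613018-14613137, minus strand): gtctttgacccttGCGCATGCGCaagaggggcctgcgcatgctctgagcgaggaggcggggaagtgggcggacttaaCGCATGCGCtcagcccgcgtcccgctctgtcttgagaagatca
Mrpl9 (chr3:94443236-94443355, plus strand): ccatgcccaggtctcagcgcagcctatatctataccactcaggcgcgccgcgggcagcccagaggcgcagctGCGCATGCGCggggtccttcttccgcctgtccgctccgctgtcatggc
Tufm and Mrpl34 each held 1 ETS match and Mrpl43 held 2. Mrpl9 held a pair of overlapping NRF1 matches, 1 on each strand, and Mrpl32 held such a pair and a separate match nearer the start. Mrpl20 held no match to the 4 motifs searched, which says only that these letters are not in this window.

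Full RefSeq promoter windows were matched for 75 of the 85 genes, some with several starts. CCGGAAG occurred in 29 of the 75 (38.7%), against 9.93% of all 27025 genes with a RefSeq window, whether tested here or not. GCGCATGCG occurred in 7 (9.33%) against 1.95%, and AAGATGGCG, the letters of the YY1 motif, in 8 (10.7%) against 1.64%. CCAAT, the letters of the NFY motif, occurred in 29 (38.7%) against 41.1%. The windows were also richer in CpG, with a median of 21 against 7. Among windows with at least 15 CpG, the shares were 37.5% against 18.9% for CCGGAAG, 10.9% against 4.22% for GCGCATGCG and 9.38% against 3.32% for AAGATGGCG. Of 13 genes with a window that were higher at the 2-cell stage in both kinds of embryo, 3 held CCGGAAG and 0 held GCGCATGCG. Of 40 that were lower in both, 15 held CCGGAAG and 5 held GCGCATGCG. These are counts of letters, with no test.

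Between zygotes and 2-cell embryos the summed transcript level of this machinery fell, while single genes moved in both directions. Summed over all 85 genes, the level was 1746 ± 113 TPM in ROSI 2-cell embryos and 1510 ± 128 TPM in ICSI 2-cell embryos (SD, n = 3 each), against 3030 ± 217 TPM in ROSI zygotes (n = 2) and 3282 ± 170 TPM in ICSI zygotes (n = 3). The large subunit summed to 1212 ± 79.2 TPM in ROSI 2-cell embryos and 1060 ± 97.9 TPM in ICSI 2-cell embryos, against 1854 ± 117 TPM in ROSI zygotes and 2037 ± 79.2 TPM in ICSI zygotes. The small subunit summed to 436 ± 27.4 TPM in ROSI 2-cell embryos and 381 ± 24.99 TPM in ICSI 2-cell embryos, against 928 ± 79.0 TPM in ROSI zygotes and 983 ± 78.6 TPM in ICSI zygotes. No 2-cell library reached the level of any zygote library in these sums. Each library was made from 1 ng of RNA and TPM has the same total in every library. The values are therefore shares of RNA and do not give amounts per embryo or per cell.

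**Figure D1:**
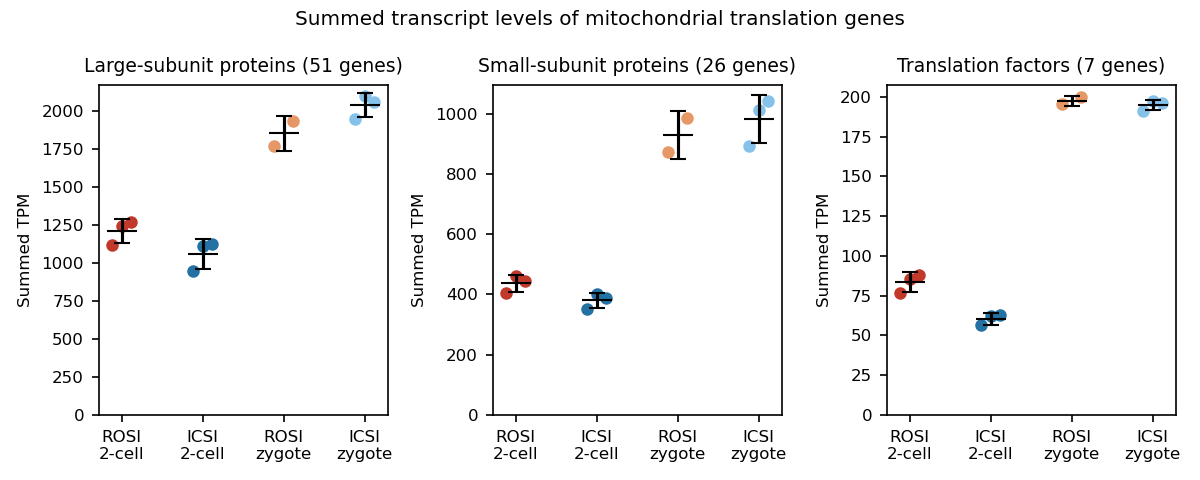
Summed TPM (vertical axis, from 0) of 51 large-subunit genes, 26 small-subunit genes and 7 factor genes in each library, by group; points are libraries, and bars are the group mean and 1 SD. All 2-cell libraries lie below all zygote libraries in each panel, and the factors sum to 83.6 TPM in ROSI 2-cell embryos and 60.5 TPM in ICSI 2-cell embryos.

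In ROSI embryos 18 genes were higher and 42 lower at the 2-cell stage than in zygotes, by limma on log2(TPM + 1) with Benjamini-Hochberg adjusted p under 0.05. Of all 21938 genes tested, 35.6% were higher and 32.3% lower. In ICSI embryos 14 were higher and 52 lower, where 33% of all genes were higher and 35% lower. The median change was -0.53 in ROSI embryos (all genes 0.19) and -0.89 in ICSI embryos (all genes 0.00). Among the 48 genes without exon overlap, 8 were higher and 24 lower in ROSI embryos, and 6 were higher and 31 lower in ICSI embryos. The 2-cell libraries all lay above the zygote libraries in 21 genes and all below in 43 in ROSI embryos (40.2% and 35.9% of all genes). In ICSI embryos they lay above in 15 and below in 54 (34.9% and 37.3% of all genes). The same 14 genes rose and the same 42 fell in both kinds of embryo, and no gene of the set passed in opposite directions. The share of all genes that passed alike in both was not counted, so this is not read as particular to the set. A further 4 rose in ROSI embryos without passing in ICSI embryos, and 10 fell in ICSI embryos without passing in ROSI embryos. The test of the difference between the changes, given below, passed for 0 of them.

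These counts depend on what the levels are measured against. Protein-coding genes held 44.6% to 51.2% of TPM in ROSI 2-cell embryos and 46.6% to 51.4% in ICSI 2-cell embryos, against 65.9% and 67.6% in ROSI zygotes and 71.2% to 71.5% in ICSI zygotes. With TPM rescaled to protein-coding genes the median of all genes became 0.56 in ROSI and 0.39 in ICSI embryos, and that of the translation genes -0.08 in ROSI and -0.45 in ICSI embryos. The counts were then 29 higher and 37 lower in ROSI embryos and 25 higher and 42 lower in ICSI embryos. Of all genes, 43% were then higher and 25.8% lower in ROSI embryos, and 41.4% higher and 26.5% lower in ICSI embryos. As a share of protein-coding TPM, the 85 genes made up 0.364% in ROSI 2-cell embryos and 0.306% in ICSI 2-cell embryos, against 0.454% in ROSI zygotes and 0.460% in ICSI zygotes.

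**Figure D2:**
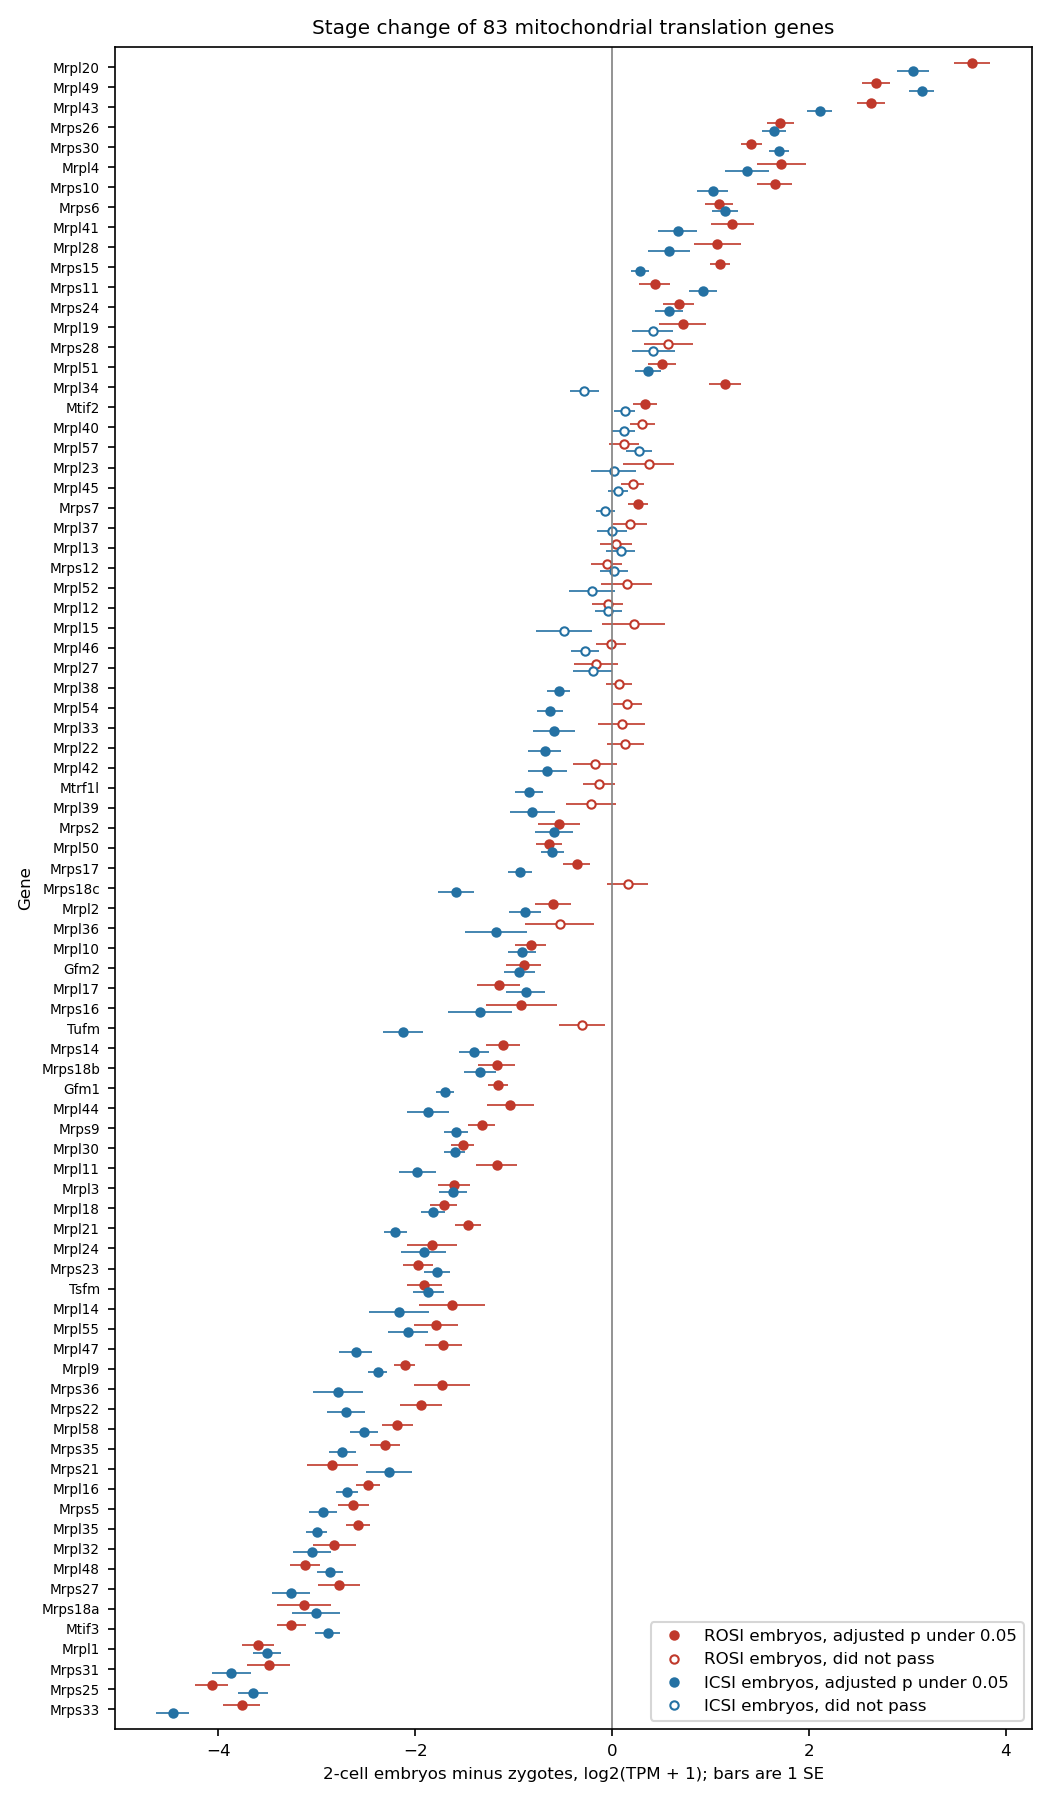
Change from zygote to 2-cell stage (horizontal axis, difference in log2(TPM + 1)) of each of the 83 tested genes in ROSI and ICSI embryos, ordered by their mean; bars are 1 SE and filled points passed the threshold. Mrpl20, Mrpl49 and Mrpl43 stand at the top in both kinds of embryo, and by the mean of both Mrps33, Mrps25 and Mrps31 stand at the bottom; in ROSI embryos Mrpl1, at -3.60, lies below Mrps31.

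Several proteins of the small subunit were among the genes that fell farthest. Mrps33, a small-subunit protein with no bacterial counterpart, had 11.5, 14.1 and 10.7 TPM in ROSI 2-cell embryos, against 163 and 188 TPM in ROSI zygotes. In ICSI embryos it had 6.34, 8.60 and 10.2 TPM at the 2-cell stage, against 174, 217 and 221 TPM in zygotes. All 2-cell libraries lay far below all zygote libraries, and the differences were -3.76 ± 0.19 in ROSI and -4.46 ± 0.17 in ICSI embryos (log2 ± SE, limma adjusted p = 2.86e-08 and 3.27e-09).

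Mrps25, also specific to the mitochondrial small subunit, fell by 4.07 in ROSI and 3.65 in ICSI embryos. Mrps31 fell by 3.49 in ROSI and 3.87 in ICSI embryos. Mrps27, a pentatricopeptide repeat protein of the small subunit, fell by 2.77 in ROSI and 3.26 in ICSI embryos. Of the 8 tested small-subunit genes without a bacterial counterpart, 7 fell and 1, Mrps26, rose in each kind of embryo, with medians of -2.54 in ROSI and -3.002 in ICSI embryos. Of the 17 with a bacterial counterpart, 6 rose and 8 fell in ROSI embryos (median -0.05), and 5 rose and 9 fell in ICSI embryos (median -0.59). The shares were 35.3% and 47.1% in ROSI and 29.4% and 52.9% in ICSI embryos. Of all genes, 35.6% rose and 32.3% fell in ROSI embryos, and 33% rose and 35% fell in ICSI embryos. Mrps5 was the lowest of the 17 in ICSI embryos, with a change of -2.93, and had -2.63 in ROSI embryos. The 17 hold both Mrps18b and Mrps18c, although only Mrps18c occupies the place of the bacterial protein. Their paralogue Mrps18a was counted in the large subunit as without a counterpart. Medians with Mrps18b moved to the other class were not computed.

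In the large subunit 10 genes rose and 22 fell of 50 tested in ROSI embryos, and 8 rose and 29 fell in ICSI embryos. The shares were 20% and 44% in ROSI and 16% and 58% in ICSI embryos. Of all genes, 35.6% rose and 32.3% fell in ROSI embryos, and 33% rose and 35% fell in ICSI embryos. Here the 29 genes with a bacterial counterpart had the lower medians, -0.83 in ROSI and -0.92 in ICSI embryos. The 21 without one had 0.12 in ROSI and -0.27 in ICSI embryos, so the order was the reverse of that in the small subunit. Mrpl1, a protein of the stalk beside the tRNA exit site, had 1.27, 1.35 and 2.01 TPM in ROSI 2-cell embryos, against 27.1 and 32.3 TPM in ROSI zygotes. It had 1.60, 2.12 and 2.22 TPM in ICSI 2-cell embryos, against 31.3, 33.8 and 32.98 TPM in ICSI zygotes. Its groups did not overlap, and the change was -3.60 ± 0.16 in ROSI and -3.51 ± 0.14 in ICSI embryos.

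Mrpl32, which is matured by a protease of the inner membrane before it joins the large subunit, had 33.9, 47.2 and 44.1 TPM in ROSI 2-cell embryos, against 263 and 339 TPM in ROSI zygotes. It had 31.3, 52.1 and 47.7 TPM in ICSI 2-cell embryos, against 324, 391.7 and 372 TPM in ICSI zygotes. It was among the most abundant transcripts of the set in zygotes, and it fell by 2.82 in ROSI and 3.05 in ICSI embryos. The changes of 3 further large-subunit genes were -3.12 in ROSI and -2.86 in ICSI embryos for Mrpl48, -2.58 in ROSI and -3.002 in ICSI embryos for Mrpl35, and -2.11 in ROSI and -2.38 in ICSI embryos for Mrpl9, and each passed. Mrpl18 fell by 1.71 in ROSI and 1.82 in ICSI embryos but kept 92.8 TPM in ROSI and 89.7 TPM in ICSI 2-cell embryos, among the higher levels of the set at that stage.

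The genes that rose included several of the large subunit. Mrpl20, whose bacterial counterpart is needed early in large-subunit assembly, had 44.4, 44.9 and 46.98 TPM in ROSI 2-cell embryos, against 2.33 and 3.06 TPM in ROSI zygotes. It had 23.8, 33.9 and 39.3 TPM in ICSI 2-cell embryos, against 3.07, 2.92 and 2.82 TPM in ICSI zygotes. The change was 3.66 ± 0.18 in ROSI and 3.05 ± 0.16 in ICSI embryos (limma adjusted p = 2.93e-08 and 3.84e-08).

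Mrpl49, a large-subunit protein of the mitochondrial lineage, had 27.9, 32.8 and 28.97 TPM in ROSI 2-cell embryos, against 3.41 and 4.26 TPM in ROSI zygotes. It had 37.3, 41.6 and 39.4 TPM in ICSI 2-cell embryos, against 4.14, 3.59 and 3.04 TPM in ICSI zygotes. Unlike Mrpl20, its 2-cell libraries were lower after ROSI than after ICSI, without passing the test (-0.39, adjusted p = 0.077). Its rise was 2.68 in ROSI and 3.14 in ICSI embryos. Mrpl43, which shares exon with Twnk, the mitochondrial helicase gene, rose by 2.63 in ROSI and 2.11 in ICSI embryos.

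Mrps30 rose by 1.41 in ROSI and 1.69 in ICSI embryos, and Mrps26 by 1.71 in ROSI and 1.64 in ICSI embryos. Mrpl4, a protein near the exit of the peptide tunnel, rose by 1.72 in ROSI and 1.37 in ICSI embryos. In the small subunit, Mrps10 rose by 1.65 in ROSI and 1.02 in ICSI embryos and Mrps6 by 1.08 in ROSI and 1.15 in ICSI embryos. Mrpl41, Mrpl28, Mrps11, Mrps24, Mrpl51 and Mrps15 completed the 14 that rose in both. Mrps30 reached 88.95 TPM in ROSI and 109 TPM in ICSI 2-cell embryos and was the most abundant of the genes that rose in both.

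The 3 paralogues of the bacterial small-subunit protein S18 all fell in ICSI embryos, and all but Mrps18c fell in ROSI embryos. Mrps18a, which sits in the large subunit, fell by 3.13 in ROSI and 3.01 in ICSI embryos. Mrps18b, a protein of the small subunit, fell by 1.17 in ROSI and 1.34 in ICSI embryos. Mrps18c, which occupies the place of the bacterial protein, changed by 0.16 in ROSI embryos (adjusted p = 0.51) and fell by 1.58 in ICSI embryos. Mrpl12, a protein of the stalk that recruits translation factors, changed by -0.04 in both, and Mrps12, a protein of the decoding centre, by -0.05 in ROSI and 0.02 in ICSI embryos. Mrpl12 was at 81.0 TPM in ROSI and 70.6 TPM in ICSI 2-cell embryos, against 83.2 TPM in ROSI and 71.7 TPM in ICSI zygotes. Its sign depended on the scaling: with TPM rescaled to protein-coding genes it was 0.43 in ROSI and 0.49 in ICSI embryos and passed in both. Mrpl58, a peptidyl-tRNA hydrolase built into the large subunit, fell, with changes of -2.18 in ROSI and -2.52 in ICSI embryos.

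Of the 7 factors, 1 rose and 4 fell in ROSI embryos, and 0 rose and 6 fell in ICSI embryos. Of all genes, 35.6% rose and 32.3% fell in ROSI embryos, and 33% rose and 35% fell in ICSI embryos. Mtif3, which readies the small subunit for initiation, fell by 3.26 in ROSI and 2.89 in ICSI embryos. Tsfm, the exchange factor that recharges the elongation factor Tufm, fell by 1.91 in ROSI and 1.87 in ICSI embryos. Gfm1, the elongation factor that moves the ribosome along the messenger RNA, fell by 1.16 in ROSI and 1.69 in ICSI embryos. Gfm2, which splits ribosomes after termination, fell by 0.90 in ROSI and 0.94 in ICSI embryos. Mtif2, which brings the initiator tRNA, rose by 0.33 in ROSI embryos and changed by 0.13 in ICSI embryos (adjusted p = 0.31). Mtrf1l, a release factor, changed by -0.13 in ROSI embryos (adjusted p = 0.48) and fell by 0.85 in ICSI embryos.

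Mrps36, of the oxoglutarate dehydrogenase complex, fell by 1.73 in ROSI and 2.79 in ICSI embryos.

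Tufm, which delivers aminoacyl-tRNA to the ribosome, was the factor whose 2 stage changes lay farthest apart. Its change was -0.31 ± 0.23 in ROSI embryos (adjusted p = 0.26), and it fell by 2.12 in ICSI embryos (SE 0.21, adjusted p = 4.31e-06). The difference between these changes is given with the other tests of that kind below.

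Many nuclear genes of the respiratory chain encode products that assemble with the proteins these ribosomes make. The nuclear respiratory chain genes had a similar balance: 25 of 84 rose and 40 fell in ROSI embryos (median -0.18), and 23 rose and 42 fell in ICSI embryos (median -0.56). The cytosolic ribosomal protein genes did not: 68 of 87 rose and 8 fell in ROSI embryos (median 1.41), and 58 rose and 12 fell in ICSI embryos (median 1.0002). Of the 13 protein genes of the mitochondrial genome, 12 rose and 0 fell in ROSI embryos (median 1.02), and 7 rose and 0 fell in ICSI embryos (median 0.88). Both mitochondrial ribosomal RNA genes rose in both kinds of embryo. Of all genes, 35.6% rose and 32.3% fell in ROSI embryos, and 33% rose and 35% fell in ICSI embryos. The medians of these lists were not tested against each other.

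**Figure D3:**
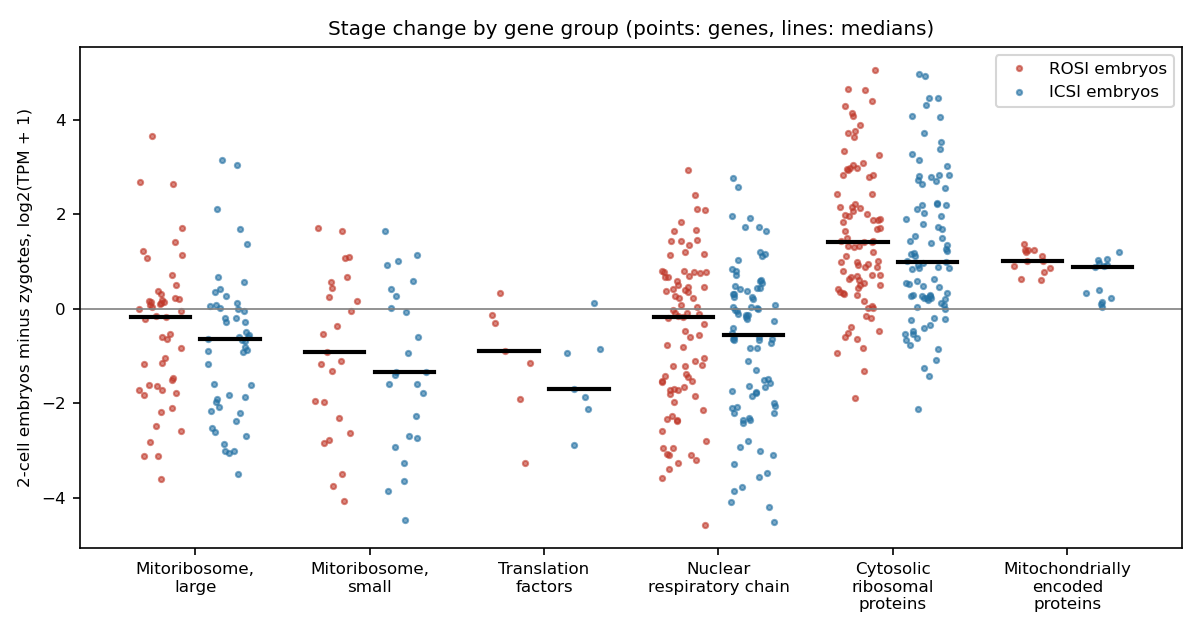
Stage change (vertical axis, difference in log2(TPM + 1)) of single genes in 6 gene groups, in ROSI and ICSI embryos; points are genes and lines are medians. The mitoribosomal and respiratory chain medians lie below 0, between -0.17 and -1.34, and those of cytosolic ribosomal and mitochondrially encoded proteins between 0.88 and 1.41.

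Other genes of the pathway also moved both ways. The counts stand beside 35.6% of all genes that rose and 32.3% that fell in ROSI embryos. In ICSI embryos these shares were 33% and 35%. Of 5 further mitoribosomal proteins 1 rose and 2 fell in each kind of embryo; Dap3, a GTP-binding protein of the small subunit, fell by 2.91 in ROSI and 2.84 in ICSI embryos. Of 6 further factors 1 rose and 5 fell in ROSI embryos and 1 rose and 4 fell in ICSI embryos, with Mrrf, the ribosome recycling factor, at -2.22 in ROSI and -1.97 in ICSI embryos. Of 22 genes that charge mitochondrial tRNA, 10 rose and 8 fell in ROSI embryos and 9 rose and 7 fell in ICSI embryos. The histidyl-tRNA synthetase gene Hars2 rose by 3.01 in ROSI and 2.05 in ICSI embryos, and the arginyl-tRNA synthetase gene Rars2 fell by 2.26 in ROSI and 2.13 in ICSI embryos.

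Of 23 genes of ribosome assembly and rRNA modification, 8 rose and 10 fell in ROSI embryos and 7 rose and 11 fell in ICSI embryos, with Tfb1m, a methyltransferase of the small-subunit rRNA, at -3.58 in ROSI and -3.15 in ICSI embryos. Of 10 genes of tRNA processing 3 rose in each, and 6 fell in ROSI and 7 in ICSI embryos. Gtpbp3, a tRNA modification GTPase, rose by 3.83 in ROSI and 3.86 in ICSI embryos. Of 7 genes of mRNA stability and membrane insertion, 1 rose and 5 fell in ROSI embryos and 0 rose and 5 fell in ICSI embryos. Of 8 genes of mitochondrial transcription and DNA maintenance, 5 rose and 1, Tfam, fell in each kind of embryo.

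The comparison of ROSI with ICSI asked how embryos from an immature male germ cell differ from those from sperm. At the 2-cell stage 14 of the 83 genes were higher and 1 lower in ROSI than in ICSI embryos by limma, where 4.93% of all genes were higher and 4.58% lower. The median difference was 0.21, against 0.04 over all genes. The 14 were 8 large-subunit genes, 4 small-subunit genes and the factors Tufm and Gfm1. In 30 genes every ROSI library was above every ICSI library, where this held for 15.4% of all genes, and in 5 every ROSI library was below, where it held for 11.8%. Among the 48 genes without exon overlap 9 were higher and 0 were lower.

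The calls rest on an estimate of spread shared with the zygotes. With the 2-cell groups fitted alone 1 gene, Mrpl34, passed (adjusted p = 0.045), and of all genes 49 were higher and 36 lower. The count was 6 without replicate 2 or without replicate 3 of the ICSI zygotes, 6 without replicate 2 of the ROSI 2-cell embryos, 7 without replicate 1 and 9 without replicate 2 of the ICSI 2-cell embryos, and 7 without both zygote libraries poor in small nuclear RNA. Counts over all genes also fell in these fits, from 1082 higher and 1005 lower in the main fit. They were 692 and 664 without replicate 2 and 693 and 661 without replicate 3 of the ICSI zygotes. They were 474 and 444 without replicate 2 of the ROSI 2-cell embryos. Without replicate 1 of the ICSI 2-cell embryos they were 506 and 569, and without replicate 2 of these 611 and 448. Without both zygote libraries poor in small nuclear RNA they were 713 and 685. With median-ratio scaling 13 were higher and 5 lower, the 5 being Mrpl48, Mrpl49, Mrps30, Mrps23 and Mtif3. With that scaling 5.46% of all genes were higher and 9.22% lower, so the share of translation genes that were lower, 6.02%, was under that of all genes. Tufm, Mrps15, Mrpl38, Gfm1, Mrpl34 and Mrpl54 passed whichever library was left out.

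**Figure D4:**
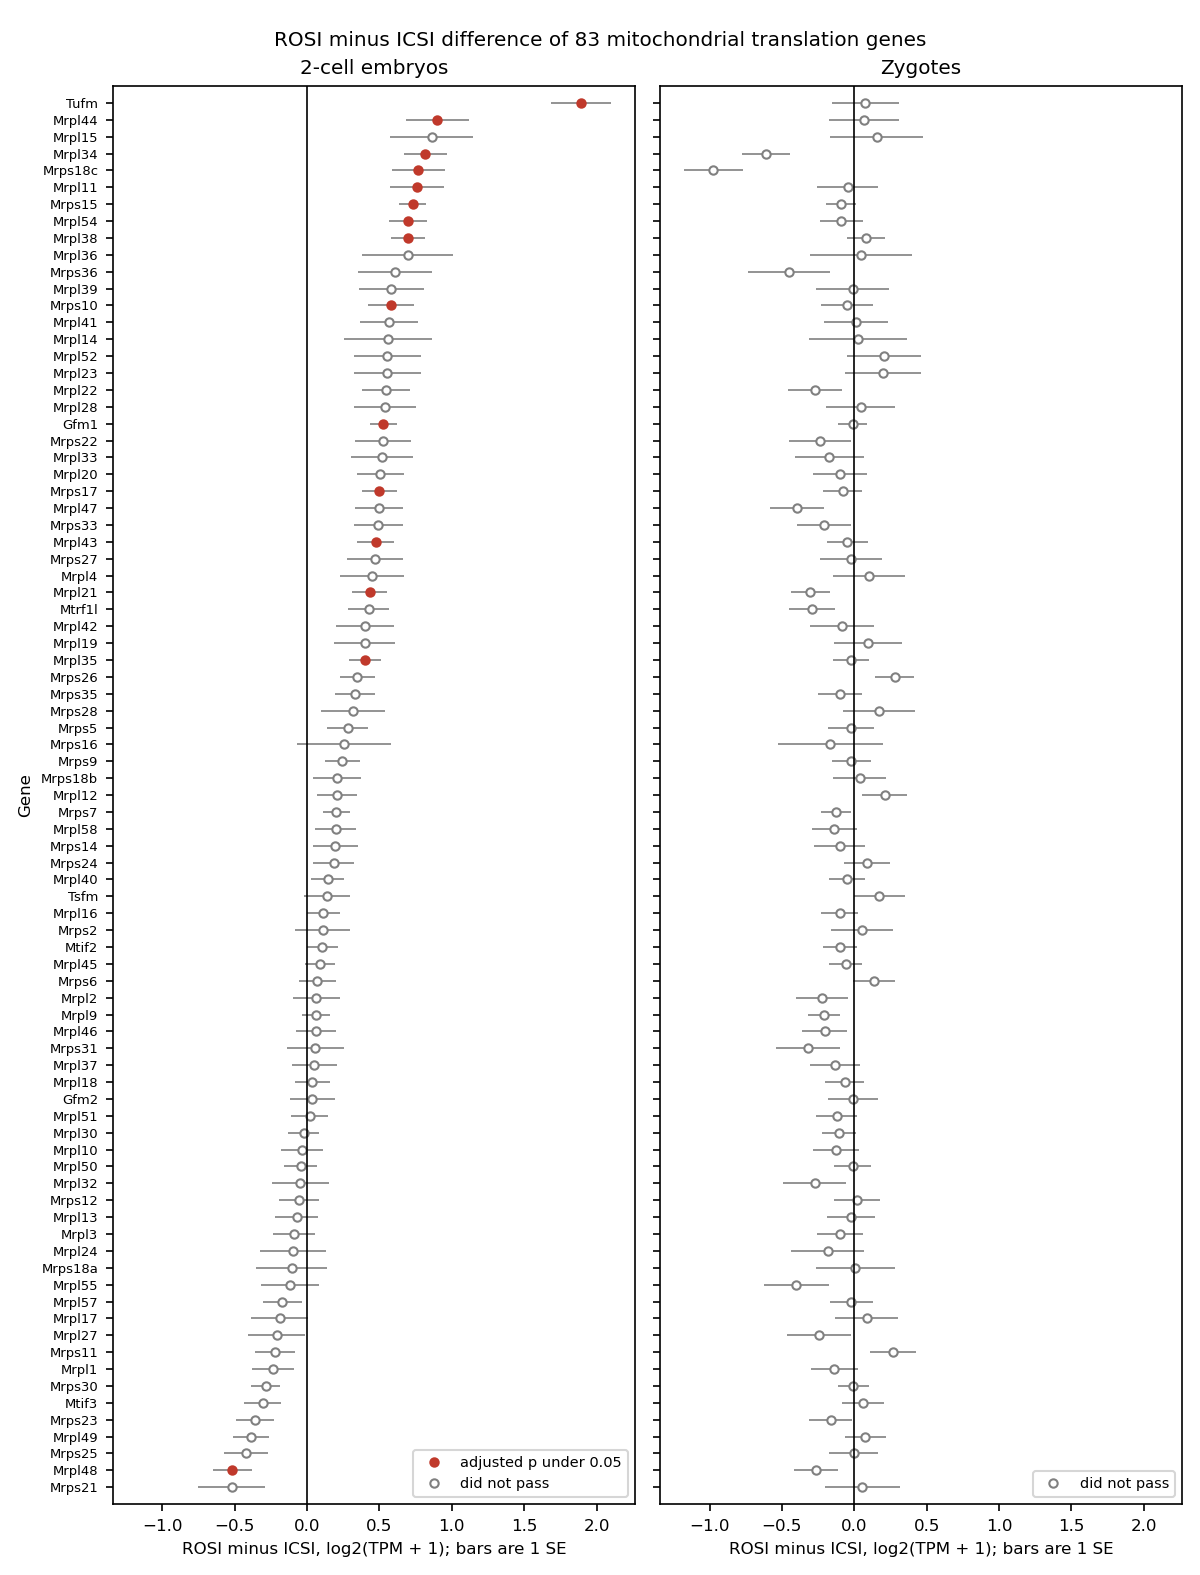
ROSI minus ICSI difference in log2(TPM + 1) (horizontal axis) of each tested gene at the 2-cell stage (left) and in zygotes (right), ordered by the 2-cell value; bars are 1 SE and filled points passed the threshold. Tufm stands apart at 1.89 among 2-cell embryos, and no gene passed in zygotes.

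Tufm had 16.2, 18.1 and 15.02 TPM in ROSI 2-cell embryos, against 2.24, 5.02 and 4.27 TPM in ICSI 2-cell embryos. It had 18.04 and 23.3 TPM in ROSI zygotes, against 19.1, 20.8 and 18.4 TPM in ICSI zygotes. The ICSI 2-cell libraries lay below all 8 others, and ROSI 2-cell libraries lay close to zygotes. The difference between ROSI and ICSI was 1.89 ± 0.21 at the 2-cell stage (adjusted p = 0.0032, at most 0.013 with any library left out), a ratio of means of 4.28. With the 2-cell groups fitted alone its adjusted p was 0.051. The lowest value, in replicate 1 of the ICSI 2-cell embryos, rested on 18 reads in the shallowest library.

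Gfm1 had 25.05, 27.4 and 29.6 TPM in ROSI 2-cell embryos, against 17.99, 17.8 and 20.1 TPM in ICSI 2-cell embryos, and 61.3 and 62.7 TPM in ROSI zygotes against 63.3, 60.6 and 63.5 TPM in ICSI zygotes. The 2-cell groups did not overlap, and the difference was 0.53 ± 0.09 (adjusted p = 0.0093). The other 5 factors did not pass at this stage: Mtrf1l was at 0.43 (adjusted p = 0.087), Mtif3 at -0.31 (0.16), Tsfm at 0.14 (0.63), Mtif2 at 0.11 (0.57) and Gfm2 at 0.04 (0.92).

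Mrpl34, a small protein of the large subunit, had 62.97, 69.6 and 69.4 TPM in ROSI 2-cell embryos, against 39.1, 33.9 and 40.4 TPM in ICSI 2-cell embryos. In zygotes the order was the other way: 23.6 and 37.6 TPM in ROSI zygotes, against 44.8, 44.7 and 48.7 TPM in ICSI zygotes. The groups did not overlap at either stage. The difference was 0.82 ± 0.15 at the 2-cell stage (adjusted p = 0.011) and -0.61 in zygotes, which did not pass (adjusted p = 0.28).

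Mrps15, which binds the small-subunit rRNA, had 43.2, 47.8 and 48.5 TPM in ROSI 2-cell embryos, against 25.4, 28.9 and 28.7 TPM in ICSI 2-cell embryos. ROSI zygotes had 20.2 and 22.1 TPM and ICSI zygotes 21.9, 23.1 and 22.7 TPM. The 2-cell groups were well separated (0.73 ± 0.09, adjusted p = 0.0039), and the zygote groups overlapped.

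Mrpl38, a large-subunit protein of the mitochondrial lineage, had 29.5, 23.2 and 25.04 TPM in ROSI 2-cell embryos, against 15.2, 17.2 and 14.2 TPM in ICSI 2-cell embryos (0.70 ± 0.12, adjusted p = 0.0091). Mrpl54, of the same class, had 20.02, 24.2 and 18.5 TPM in ROSI 2-cell embryos, against 13.8, 13.4 and 10.4 TPM in ICSI 2-cell embryos (0.70 ± 0.13, adjusted p = 0.013). The ROSI 2-cell libraries of both genes lay above the ICSI 2-cell libraries without overlap.

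Mrpl44, a large-subunit protein with a fold related to ribonucleases, was higher by 0.90 in ROSI 2-cell embryos, with 8.24, 14.4 and 15.1 TPM against 4.50, 7.35 and 6.72 TPM in ICSI 2-cell embryos. Mrps18c was higher by 0.77, with 3.97, 4.53 and 3.05 TPM against 1.23, 2.48 and 1.90 TPM in ICSI 2-cell embryos, of which the lowest value rested on 5 reads. Mrpl11, a protein of the centre that activates the GTPases, was higher by 0.76, Mrps10 by 0.58, Mrps17 by 0.50, Mrpl43 by 0.47, Mrpl21 by 0.43 and Mrpl35 by 0.40. Each of these 8 missed the threshold in at least 1 fit with a library left out. Mrpl48, the 1 gene that was lower, had 4.40, 4.43 and 5.87 TPM in ROSI 2-cell embryos, against 7.29, 8.08 and 6.88 TPM in ICSI 2-cell embryos (-0.52 ± 0.13, adjusted p = 0.039), and also missed it there. Mrps30 was at -0.29 (adjusted p = 0.089).

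**Figure D5:**
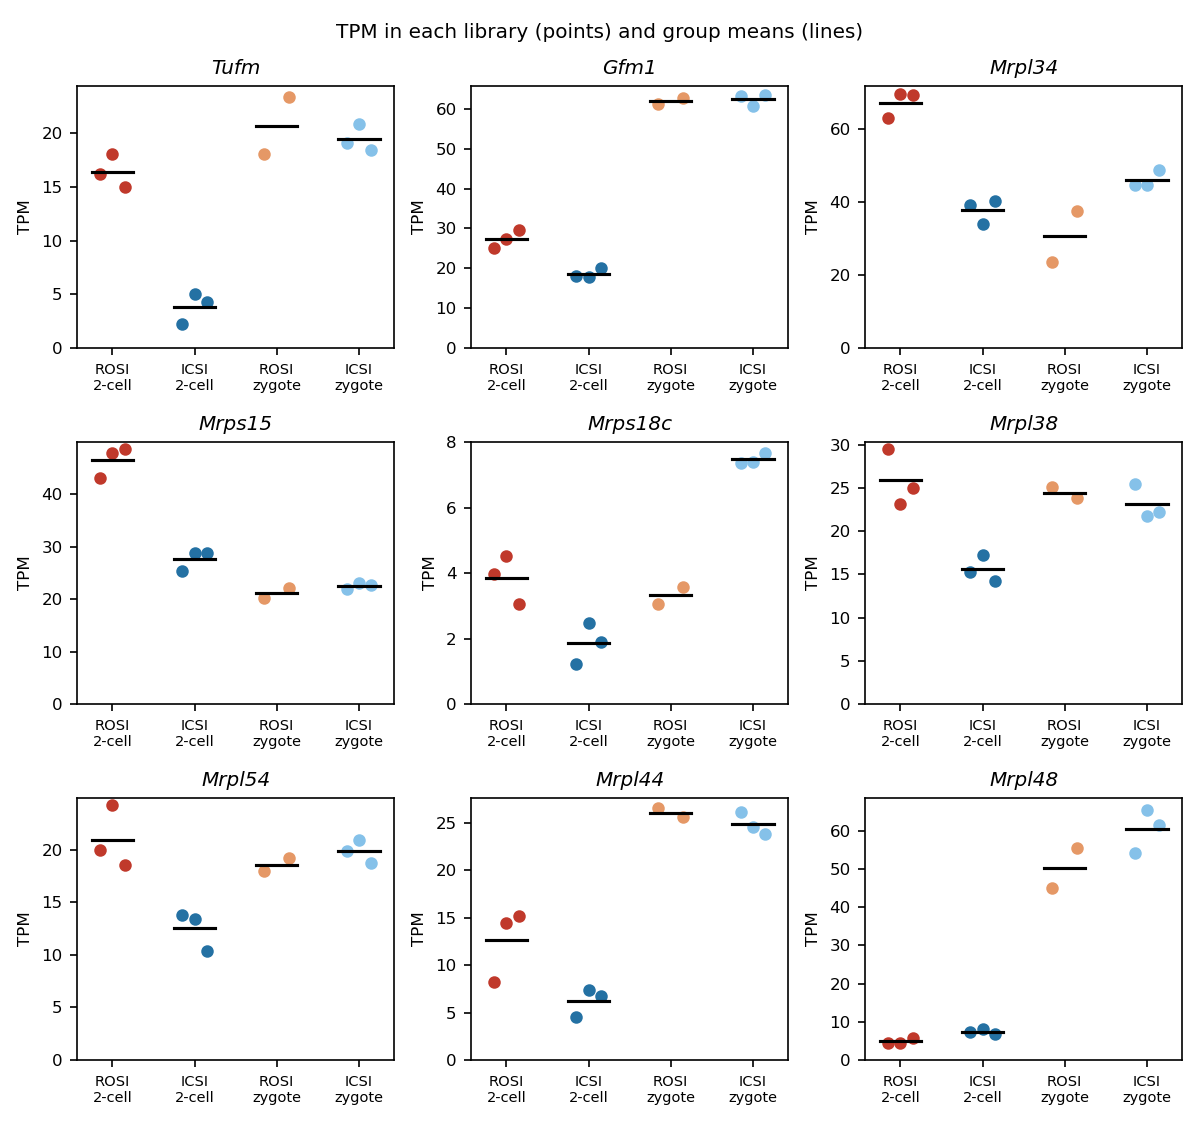
TPM (vertical axes, from 0) in each library of 9 genes that passed between ROSI and ICSI 2-cell embryos; points are libraries and lines are group means. Tufm is at 3.84 TPM on average in ICSI 2-cell embryos and at 16.4 to 20.7 TPM in the other groups, and Mrpl34 has opposite orders at the 2 stages.

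Marker levels moved with this comparison. The 11 tested 2-cell genes of genome activation summed to 429 to 558 TPM in ROSI 2-cell embryos, against 768 to 814 TPM in ICSI 2-cell embryos, and 7 of the 11 were lower in ROSI. The oocyte and spermatid sums also differed, as given above. Their part in the differences of the translation genes was not tested. Among the comparison genes at this stage, 8 of 84 respiratory chain genes were higher and 3 lower, and 5 of 87 cytosolic ribosomal protein genes were higher and 1 lower. Of all genes, 4.93% were higher and 4.58% lower. The 13 protein genes of the mitochondrial genome lay between 0.11 and 0.37, with a median of 0.16.

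Several other genes of the pathway passed at the 2-cell stage, where 4.93% of all genes were higher and 4.58% lower. Of 5 further mitoribosomal proteins and 6 further factors 0 passed, with medians of -0.19 and -0.12. Of 22 genes that charge mitochondrial tRNA 2 were higher and 1 lower, and of 23 of ribosome assembly 0 and 1. Among 10 genes of tRNA processing and 7 of mRNA stability, 2 each were higher and 0 lower. Among 8 genes of mitochondrial transcription 3 were higher and 0 lower. Yars2, the tyrosyl-tRNA synthetase gene, was higher by 1.03 and Hars2 by 0.73 in ROSI embryos, and Fars2, the phenylalanyl-tRNA synthetase gene, was at -0.39 and lower. Tfam, which packages mitochondrial DNA and starts its transcription, was higher by 0.74, the transcription elongation factor gene Tefm by 0.61 and Twnk by 0.48. The inner membrane insertase gene Oxa1l was higher by 0.59, the mRNA stability factor gene Lrpprc by 0.66, the tRNA processing gene Elac2 by 0.56 and the tRNA methyltransferase gene Trmt61b by 0.72. Nsun4, an rRNA methyltransferase gene, was at -0.43 and lower.

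In zygotes 0 of the 83 genes passed between ROSI and ICSI by limma, where 0.146% of all genes did. An unadjusted p under 0.05 was found for 3, and the share of all genes at that limit was not computed. The median difference was -0.05, against -0.06 over all genes, and was 0.03 under both other scalings. In 6 genes the ROSI libraries were all above the ICSI libraries (6.97% of all genes) and in 9 all below (19.4%). The median SE of a translation gene was 0.17 here, with 2 ROSI libraries, against 0.15 at the 2-cell stage. A p that misses the threshold does not show that the levels were alike.

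The lowest p in zygotes was that of Mrps18c, with 3.05 and 3.58 TPM in ROSI zygotes, against 7.35, 7.37 and 7.68 TPM in ICSI zygotes (-0.97 ± 0.21, adjusted p = 0.12). Mrpl34 and Mrpl21 followed with -0.61 and -0.30. On the other side Mrps26 was at 0.28, Mrps11 at 0.27 and Mrpl12 at 0.21. The factors lay between -0.29 for Mtrf1l and 0.17 for Tsfm, with Tufm at 0.08, Mtif3 at 0.06, Gfm1 and Gfm2 at -0.01 and Mtif2 at -0.10. Mrpl34 passed in 1 fit, without replicate 2 of the ROSI zygotes.

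The difference between the stage changes of ROSI and ICSI embryos was tested as an interaction. By limma 0 of the 83 genes passed, where 0.0182% of all genes did. An unadjusted p under 0.05 was found for 24. The share of all genes at that limit was not computed, so the 24 cannot be set against it. The median was 0.29, against 0.10 over all genes. Tufm had 1.82 ± 0.31 (adjusted p = 0.070), Mrps18c 1.74 ± 0.27 (0.064), Mrpl34 1.43 ± 0.22 (0.064) and Mrps15 0.82 ± 0.14 (0.070).

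These 4 genes, and no others of the set, passed with a pseudocount of 5, with a filter of 5 TPM, with median-ratio scaling and with TPM rescaled to protein-coding genes. Each time the stage change was higher in ROSI embryos. The share of all genes that passed as higher was 0.324% with that pseudocount, 0.426% with that filter, 0.292% with median-ratio scaling and 0.287% with the rescaled TPM, and the share that passed as lower was 0.105%, 0.124%, 0.82% and 0.155% in the same order of settings. For Tufm and Mrps15 the ROSI and ICSI libraries differed at the 2-cell stage, and for Mrpl34 and Mrps18c they lay in opposite orders at the 2 stages. On the other side the smallest p were those of Mrpl49 at -0.47 (adjusted p = 0.28), Mrps11 at -0.49 (0.31) and Mrps30 at -0.28 (0.39). The ROSI and ICSI changes of each gene are given side by side above, since the comparisons share libraries.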

How the data were processed

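RNA-seq of 11 mouse embryo libraries was used. The authors deposited TPM per gene and library; per the submitters' processing notes fastp, Bowtie2, STAR 2.7.4a, featureCounts and build mm10 were used, without roles or order. The annotation and strand setting are not given in the sources used here. All columns mapped to a labelled sample. Genes were matched by name to GENCODE M21 (47096 of 49585 rows; all 85 members). Depth was recovered from TPM times exon length, and 85.1% to 86.7% of values per library came out within 0.01 of a whole read.

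limma 3.58.1 in R 4.3.3 (lmFit, contrasts.fit, eBayes with trend) was fitted to log2(TPM + 1) over 21938 genes, namely those reaching 1 TPM in 2 or more libraries. The model had 4 group means and 5 contrasts, with Benjamini-Hochberg adjustment over all genes tested and a threshold of 0.05. Fold changes are on that scale and understate changes of low genes. The method was tested on simulated data, with changes of 1 on the log2 scale added to genes that were not low. Between ROSI and ICSI it recovered 73% of these in zygotes and 78% in 2-cell embryos. Of all genes called there, 6.1% and 6.9% were false. For the stage change it recovered 75% in ROSI and 85% in ICSI embryos, with 4.4% and 4.7% false. Named genes are the 6 highest and 6 lowest by mean, the 7 factors, up to 10 passing members per direction and contrast with at least 5 TPM (3 by p where fewer than 3 passed), the paralogues and listed single genes, and up to 3 genes per pathway list; others named, such as further genes in counts of calls, were chosen after their values were seen. Members and lists were chosen with earlier results of these data known. The alternatives tried were pseudocounts, filters, scalings, a replicate block, groups fitted alone and omitted libraries.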

Additional observations from a re-analysis of the deposited data

How the results depend on the processing

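The count of genes passing between ROSI and ICSI 2-cell embryos, 15 in all, was 7 without a filter on low values. Of all 41516 genes tested without that filter, 721 were higher and 645 lower. The count was 7 without both zygote libraries poor in small nuclear RNA, and 1 with the groups fitted alone. It ranged from 6 to 13 with 1 library left out. The cause was not tested. Fewer libraries entered each of these fits except the one without a filter. Counts over all genes for several of them are given above. With a library left out the count ranged from 0 to 1 between zygotes, from 52 to 62 for the stage change in ROSI embryos, where 60 passed, and from 61 to 67 in ICSI embryos, where 66 did. For the difference between the stage changes it ranged from 0 to 1 in these fits, and was 4 with a pseudocount of 5, a 5 TPM filter, median-ratio scaling or TPM rescaled to protein-coding genes. Mrpl12 reversed its stage change under the last of these, at 0.43 in ROSI and 0.49 in ICSI embryos, since coding genes hold a smaller share of TPM at the 2-cell stage.

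The labels do not pair libraries, and only 2 of 15 pairs with the same replicate number had deviations correlated above 0.1 (range -0.04 to 0.33). With the replicate number as a block, 15 genes were higher and 1 lower between ROSI and ICSI 2-cell embryos, 0 passed between zygotes, 16 were higher and 41 lower for the stage change in ROSI embryos, 14 and 53 in ICSI embryos, and 0 passed for the difference between them. With that block 904 of all genes were higher and 833 lower between ROSI and ICSI 2-cell embryos. For the stage change they were 7588 and 7028 in ROSI embryos and 7193 and 7655 in ICSI embryos. Of 66 named results that passed, 66 kept their call under both scalings, 61 without a filter and 54 of 66 with groups fitted alone. Many of these were named for their large differences among passing genes, so this says little about the other genes. Over all fits with 1 library left out, 676 of their calls were kept and 50 lost. Of 56 named results that did not pass, 8 passed with median-ratio scaling. With TPM rescaled to protein-coding genes 7 of the 56 passed, and a further 2 passed with the sign reversed. Depth limits the ICSI 2-cell values, where replicate 1 had 8.48 M reads (megareads).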
